A study of Danio rerio with 30 samples.

Results

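The genes described here are the 6 protein-coding genes of the zebrafish mitochondrial genome that are not subunits of complex I: mt-co1, mt-co2 and mt-co3 of cytochrome c oxidase, mt-cyb of the cytochrome bc1 complex, and mt-atp6 and mt-atp8 of ATP synthase. They were chosen by name and identifier, whatever their values, and are 6 of the 20631 genes in the count table. The reference list of symbols writes all but mt-atp8 in capitals (MT-CO1, MT-CYB). Their identifiers are ENSDARG00000063905 (mt-co1), ENSDARG00000063908 (mt-co2), ENSDARG00000063912 (mt-co3), ENSDARG00000063911 (mt-atp6), ENSDARG00000063910 (mt-atp8) and ENSDARG00000063924 (mt-cyb). All 6 passed the filter on low counts and were tested.

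RNA-seq read counts came from 30 Smart-seq2 libraries of haematopoietic stem and progenitor cells, sorted for low GFP from zebrafish carrying Tg(itga2b:GFP), a reporter under the promoter of the platelet integrin gene itga2b. Their genotype was wild type or rps14 heterozygous, rps14 being the gene of a ribosomal protein. Some received phenylhydrazine (Phz), which destroys red cells, at 1 µg/mL between 24 and 48 hours of development, and the rest were unstressed. Treatment followed for 4 days, up to day 6, with imiquimod at 20 µM, which activates TLR7, or with the solvent DMSO. Among wild-type libraries, 3 were unstressed with DMSO, 4 unstressed with imiquimod, 3 Phz with DMSO and 4 Phz with imiquimod. The heterozygous groups, in that order, numbered 4, 3, 5 and 4. Every group carried the reporter transgene, and genotypes were read from tail clips before embryos were pooled. The labels leave unsaid whether replicates are separate pools, and p-values therefore describe the spread among these libraries, which may be partly technical.

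Mitochondrial DNA is transcribed from both strands into long precursors, from which the transfer RNAs are cut out to release the ribosomal and messenger RNAs. The 13 proteins it encodes are made on mitochondrial ribosomes and join many more nuclear-encoded subunits in the respiratory complexes. Haematopoietic stem cells are known for relying strongly on glycolysis, and respiration rises as progenitors differentiate.

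Library totals ran from 5703056 to 15238153 counts (median 6894464). The rps14 level was 347 to 672 CPM, a unit that sets each library to the same total, in the 14 wild-type libraries and 100 to 346 in the 16 heterozygous ones, so the genotypes did not overlap. Of the 6 stem and progenitor markers found in the table, none was at 0 in any library, and their summed level was 860 to 2556 CPM. The 6 thrombocyte markers found summed to 105 to 347 CPM, and itga2b itself was at 0.269 to 34.2 CPM. Neutrophil markers summed to 5439 to 30652 CPM, and exocrine pancreas markers to 418 to 6736 CPM. The pancreas sum includes a cpa1 gene at 413 to 1481 CPM, so its lower end rests mostly on that gene. prss1 ran from 0 to 1503 CPM and ela2l from 0 to 494 CPM, and ela2l was at 0 in 13 libraries. In bulk libraries, fewer cells of a type and less RNA per cell cannot be told apart.

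The main feature of the 6 genes was a low level in 1 group. In wild-type unstressed larvae given imiquimod, each of the 6 had its lowest mean of the 8 groups. Summed, they took 1.02% of counts there, against 1.48% in the wild-type unstressed DMSO group and 1.89% in the heterozygous unstressed imiquimod group. By library these sums ran from 0.862% to 1.24%, from 1.24% to 1.7% and from 1.44% to 2.17%. Other groups reached into the first range, down to 1.11% in 1 heterozygous unstressed DMSO library. The sum itself was not tested. None of the 6 passed the adjusted test in any of 18 contrasts, that is in 0 of 108 tests by edgeR's quasi-likelihood method, and the lowest Benjamini-Hochberg adjusted p was 0.16. Of these 108 tests, 32 had an unadjusted p under 0.05, where 3.51% to 12.3% of all genes did by contrast. mt-co1, mt-co2 and mt-co3 gave 5, 10 and 11 of the 32. They ranked 31, 13 and 16 by mean CPM, and the share over all genes does not match them for level. Many of the contrasts share libraries and levels of the 6 genes were correlated, so these tests are not independent. limma voom called none of the 6. DESeq2 called mt-co1, mt-co2 or mt-atp6 in 3 contrasts, given below.

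**Figure D1:**
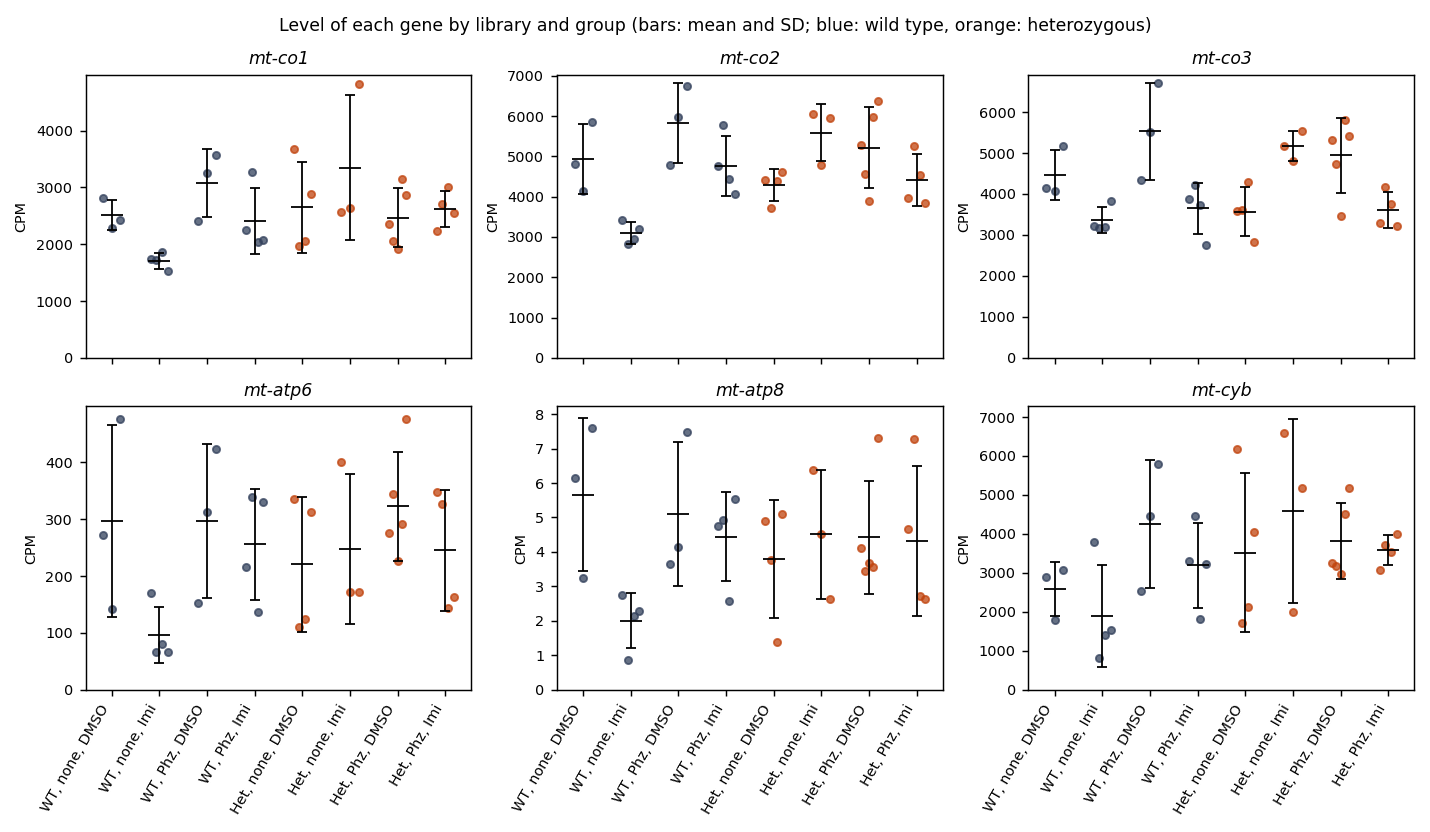
Level of each of the 6 genes in CPM (linear axis from 0) in every library, by group. Points are libraries and bars are group mean ± SD. The 4 wild-type unstressed imiquimod libraries have the lowest group mean in every panel, for example 1712 CPM for mt-co1 and 95.9 CPM for mt-atp6.

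Cytochrome c oxidase is the terminal enzyme of the respiratory chain, passing electrons to oxygen. mt-co1 encodes the catalytic subunit that holds the haem groups and a copper centre. Its level in the wild-type unstressed DMSO libraries was 2811, 2294 and 2435 CPM. In the wild-type unstressed imiquimod libraries it was 1734, 1720, 1870 and 1523 CPM, the 4 lowest values of all 30 libraries. The heterozygous unstressed imiquimod libraries had 2572, 2643 and 4823 CPM, the last being the highest of the 30. Means with SD were 2513 ± 267 (n = 3), 1712 ± 143 (n = 4) and 3346 ± 1279 CPM (n = 3). The other 5 groups had means of 2408 to 3084 CPM and overlapped each other.

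mt-co2 encodes the subunit that receives electrons from cytochrome c. Its wild-type unstressed DMSO values were 4809, 4132 and 5864 CPM, and its wild-type unstressed imiquimod values 3417, 2829, 2943 and 3201 CPM. The latter were again the 4 lowest of the 30 libraries, and no library of another group reached down to them. In heterozygous unstressed imiquimod libraries mt-co2 stood at 6054, 4775 and 5948 CPM. Group means were 4935 ± 873 (SD, n = 3), 3097 ± 264 (n = 4) and 5592 ± 710 CPM (n = 3). The heterozygous unstressed DMSO group had 4418, 3723, 4387 and 4625 CPM, below all 3 heterozygous imiquimod libraries.

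mt-co3 encodes the third core subunit, which carries no redox centre. Its values were 4149, 4083 and 5162 CPM in wild-type unstressed DMSO and 3228, 3179, 3190 and 3828 CPM in wild-type unstressed imiquimod libraries. The 2 groups did not overlap, but libraries of other groups reached as low, down to 2767 CPM in 1 wild-type Phz imiquimod library. Heterozygous unstressed imiquimod libraries had 5163, 4802 and 5545 CPM, above the 3580, 3604, 4281 and 2819 CPM of heterozygous unstressed DMSO. After Phz the order of the treatments was the other way in heterozygous larvae, with a mean of 4940 ± 915 CPM in DMSO (SD, n = 5) and 3613 ± 445 CPM in imiquimod (n = 4). In wild-type larvae after Phz, mt-co3 was at 4335, 5523 and 6718 CPM in DMSO and 3873, 4217, 3733 and 2767 CPM in imiquimod, with no overlap.

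mt-cyb encodes cytochrome b, the subunit of the bc1 complex that binds ubiquinol and holds a pair of haems. It varied within groups far more than the oxidase subunits. Wild-type unstressed DMSO libraries had 2882, 1790 and 3069 CPM, and wild-type unstressed imiquimod libraries had 3801, 827, 1401 and 1535 CPM. Of the 30 libraries the last 3 were the lowest, but replicate 1 was above all 3 wild-type unstressed DMSO libraries. Heterozygous unstressed imiquimod libraries spanned 1983 to 6597 CPM, with a mean of 4589 ± 2365 (SD, n = 3). The most even group was heterozygous Phz imiquimod, at 3584 ± 381 CPM (n = 4).

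mt-atp6 encodes subunit a of ATP synthase, which forms the path for protons beside the rotating ring. Its wild-type unstressed DMSO values were 272, 142 and 476 CPM. Its wild-type unstressed imiquimod values were 170, 66.7, 79.9 and 67.2 CPM, 3 of them the lowest of the 30 libraries and replicate 1 within the DMSO range. Heterozygous unstressed imiquimod libraries had 400, 172 and 172 CPM, all above the wild-type imiquimod libraries. In the other 5 groups the means were 220 to 323 CPM, and the groups overlapped.

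mt-atp8 encodes a small membrane subunit of ATP synthase whose reading frame overlaps that of mt-atp6. It had 5 to 56 counts per library, and a count of 5 has an exact 95% Poisson interval of 1.62 to 11.7, which covers counting error only. Wild-type unstressed DMSO libraries had 6.14, 3.23 and 7.59 CPM, and wild-type unstressed imiquimod libraries had 2.74, 0.864, 2.14 and 2.28 CPM, with no overlap. Heterozygous unstressed imiquimod libraries had 6.38, 4.53 and 2.63 CPM, reaching into the wild-type imiquimod range.

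Across the 8 groups ordered by mean, 37 of 42 neighbouring pairs differed by less than the larger SD of the pair, and 40 of 42 overlapped. Ordering puts the closest means side by side, so high counts here are largely set in advance and do not measure how alike the groups were. The pairs that did not overlap were the wild-type unstressed imiquimod group and the next lowest, for mt-co1 and mt-co2. mt-atp6 and mt-atp8 also differed there by more than the SD but overlapped, as did mt-co3 between the wild-type Phz imiquimod and wild-type unstressed DMSO groups. No other neighbours in the order differed beyond their SD. The means of the genotypes over all conditions were 2376 ± 637 CPM in wild-type (SD, n = 14) and 2718 ± 737 CPM in heterozygous libraries (n = 16) for mt-co1, 2918 ± 1395 and 3826 ± 1422 CPM for mt-cyb, and 228 ± 133 and 264 ± 108 CPM for mt-atp6.

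**Figure D2:**
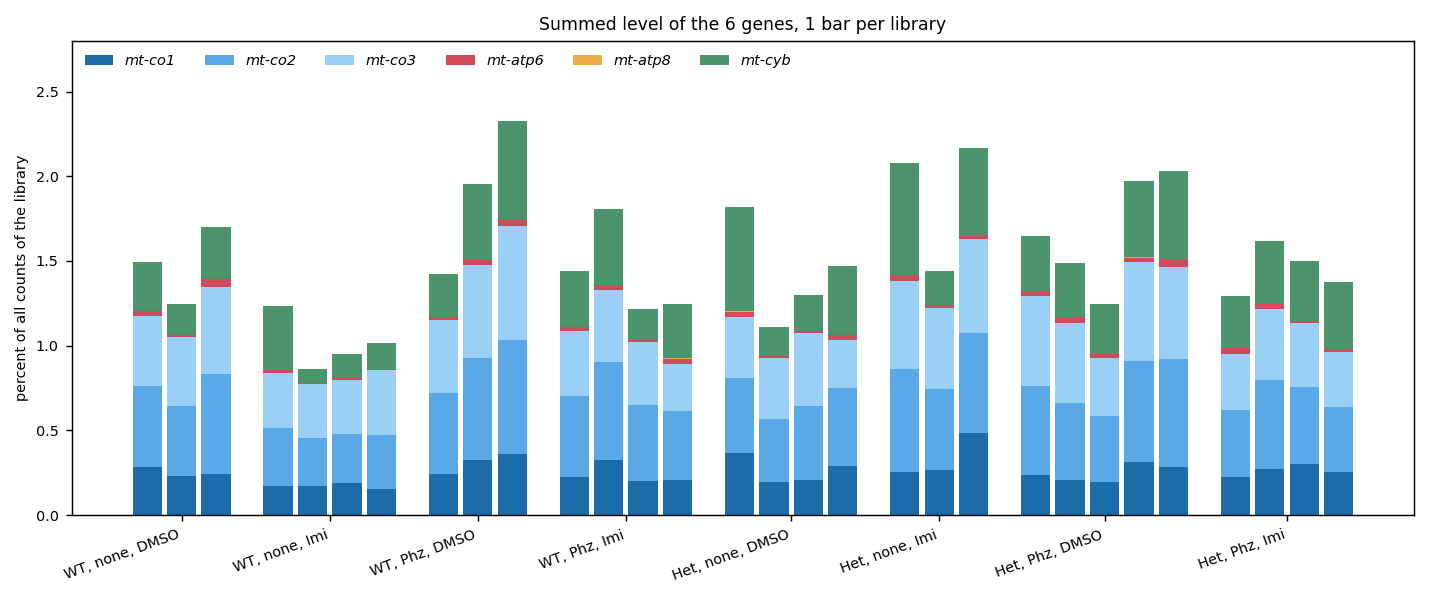
Summed share of counts of the 6 genes in every library, in percent, stacked by gene. The lowest library is wild-type unstressed imiquimod replicate 2 at 0.862% and the highest is wild-type Phz DMSO replicate 3 at 2.33%.

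Together the 6 genes took 1.52% ± 0.371 of a library's counts (SD, n = 30), and all 13 mitochondrially encoded messenger RNAs took 1.72% ± 0.428. Of the summed level of the 6, mt-co2 made up 31.3% on average, mt-co3 28.4%, mt-cyb 21.7%, mt-co1 17%, mt-atp6 1.58% and mt-atp8 0.0275%. These are shares of read counts and not of molecules, since gene lengths of the build used were not available here and levels of different genes were not compared per length. The ratio of mt-co3 to mt-co2 counts was 0.61 to 1.2 over the libraries. Its mean was highest, at 1.09, in the wild-type unstressed imiquimod group.

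The comparison of imiquimod with DMSO in wild-type unstressed larvae asks what the TLR7 agonist does without red cell loss or the rps14 mutation. All 6 genes had negative log2 fold changes, with a median of -0.68 against 0.08 over all genes tested. The values were -0.61 ± 0.21 for mt-co1 (edgeR, SE), -0.74 ± 0.16 for mt-co2, -0.48 ± 0.17 for mt-co3, -1.72 ± 0.49 for mt-atp6, -1.56 ± 0.77 for mt-atp8 and -0.52 ± 0.47 for mt-cyb. The adjusted p was 0.16 for mt-co2 and 0.42 to 0.96 for the others, so 0 of 6 were called, where 0% of all 19930 genes were called. At an unadjusted p under 0.05, 4 of 6 passed, where 7.06% of all genes did. Ranges of the 2 groups did not overlap, all lower with imiquimod, for mt-co1, mt-co2, mt-co3 and mt-atp8, and 2.72% of all genes were as separate in that direction. DESeq2 called mt-co2 (adjusted p = 0.025) and mt-atp6 (adjusted p = 0.048) among 78 genes, 0.438% of the 17808 it gave an adjusted p. Over all settings run, the adjusted p ranged from 0.025 to 0.8 for mt-co2 and from 0.048 to 0.92 for mt-atp6.

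Without wild-type unstressed DMSO replicate 2, edgeR called mt-co2 at a log2 fold change of -0.88 (adjusted p = 0.044). For mt-cyb the value was -1.11 without wild-type unstressed imiquimod replicate 1 and -0.27 without replicate 2 of that group. When counts were scaled to the 13 mitochondrial messenger RNAs instead of the whole library, the log2 fold changes of mt-co1, mt-co3 and mt-cyb turned to 0.01, 0.16 and 0.02, and those of mt-co2, mt-atp6 and mt-atp8 were -0.1, -1.08 and -0.94. No member was called on that scale, which removes by construction any change the 13 share and so could not call a shared change.

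The comparison of genotypes within unstressed imiquimod larvae asks whether rps14 heterozygosity changes the cells under the agonist. It uses the same wild-type imiquimod libraries as the comparison before it and is not independent of it. All 6 genes were higher on average in heterozygous libraries, with a median log2 fold change of 0.99 against -0.05 over all genes. The values were 0.88 ± 0.21 for mt-co1 (edgeR, SE), 0.77 ± 0.16 for mt-co2, 0.54 ± 0.17 for mt-co3, 1.31 ± 0.49 for mt-atp6, 1.09 ± 0.77 for mt-atp8 and 1.21 ± 0.47 for mt-cyb. The adjusted p was 0.19 for mt-co2, 0.39 for mt-co1 and 0.73 to 1 for the rest. No member was called, and 0.00502% of all genes were, that is 1 gene. At an unadjusted p under 0.05, 5 of 6 passed, where 4.06% of all genes did. Ranges did not overlap, all higher in heterozygous libraries, for mt-co1, mt-co2, mt-co3 and mt-atp6, and 4.13% of all genes were as separate. DESeq2 called mt-co1 (adjusted p = 0.043) and mt-co2 (adjusted p = 0.015). These were among 26 genes, 0.615% of the 4229 that DESeq2 gave an adjusted p here, and over all settings run the adjusted p ranged from 0.043 to 0.97 for mt-co1 and from 0.015 to 0.85 for mt-co2.

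Leaving out single libraries moved this genotype difference by over 1.5 times for mt-co1, to 0.55 without heterozygous unstressed imiquimod replicate 3 (edgeR, adjusted p = 0.82), and for mt-atp6, to 0.75 without replicate 1 of that group (adjusted p = 1). Scaled to the 13 mitochondrial messenger RNAs, mt-co1 was at 0.02, mt-atp6 at 0.5, mt-atp8 at 0.34 and mt-cyb at 0.39, and mt-co2 and mt-co3 turned to -0.06 and -0.29. A change shared by the 13 could not be called on that scale. That scaling called none of the 6 and 691 of all genes, against 1 gene with the library scaling. By construction, a difference in the sum of the 13 shifts every other gene the opposite way on that scale. The 691 are therefore not a count of differences apart from that shift.

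Phz against no stress in wild-type imiquimod larvae shares those libraries once more. All 6 log2 fold changes were positive, from 0.17 ± 0.16 for mt-co3 (edgeR, SE) to 1.46 ± 0.47 for mt-atp6, and mt-co2 had 0.67 ± 0.15 with an adjusted p of 0.19. No member was called, where 0% of all genes were. DESeq2 called mt-co2 (adjusted p = 0.047) among 36 genes, 0.305% of the 11822 it gave an adjusted p, and over all settings run that p ranged from 0.047 to 0.61. At an unadjusted p under 0.05, 3 of 6 passed, where 6.41% of all genes did. Ranges did not overlap for mt-co1 and mt-co2, and 1.84% of all genes were as separate in that direction. Scaled to the mitochondrial messenger RNAs, mt-co1 and mt-co3 turned to -0.05 and -0.4. Leaving out single libraries moved mt-co1 to 0.35 without wild-type Phz imiquimod replicate 2 and mt-cyb to 1.39 without wild-type unstressed imiquimod replicate 1. It moved mt-co3 between 0.09 and 0.28.

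**Figure D3:**
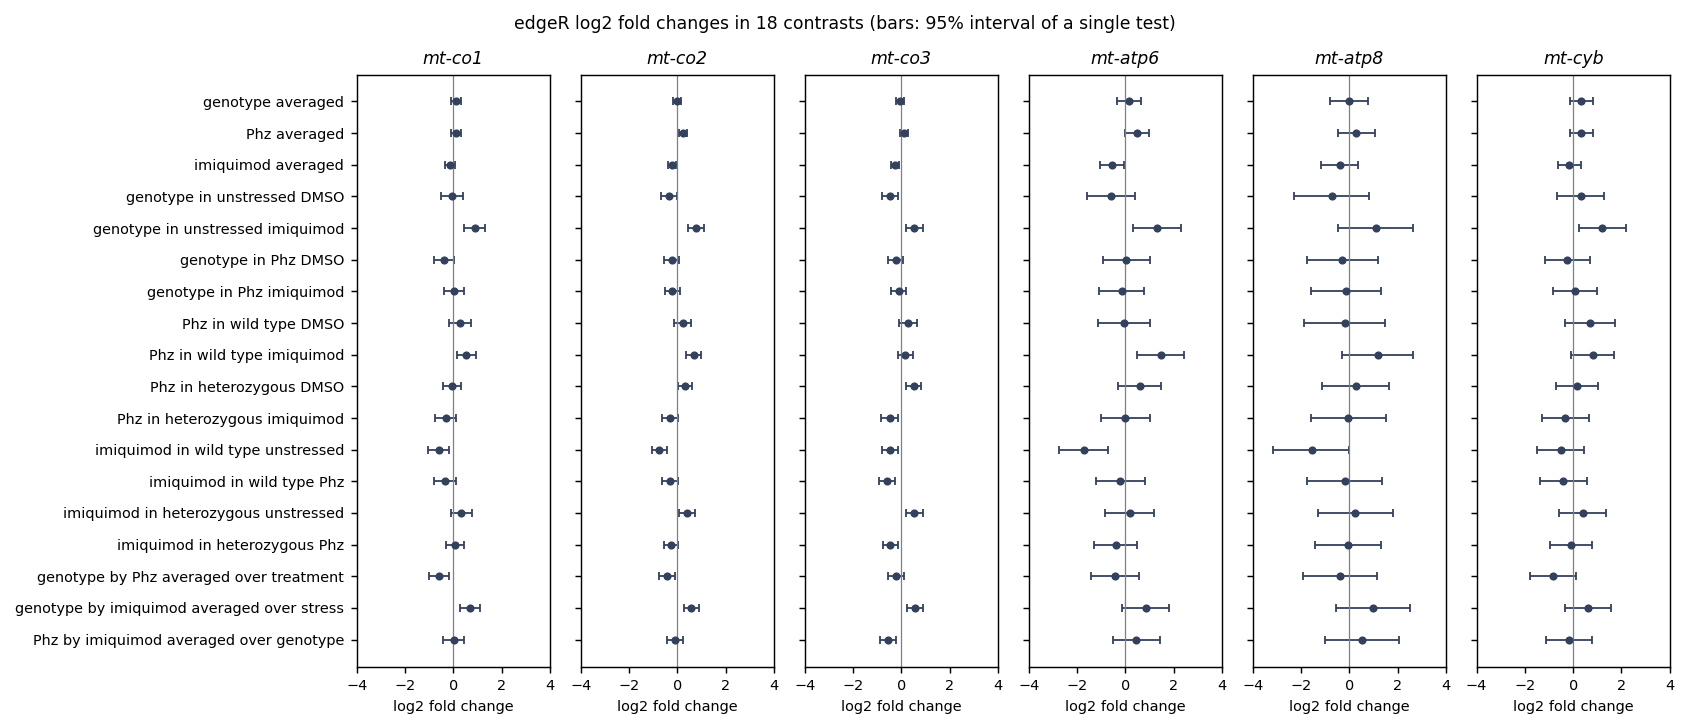
Log2 fold changes by edgeR of the 6 genes (panels) in 18 contrasts (rows), with 95% intervals of a single test. Intervals away from 0 are unadjusted, and no gene passed the adjusted test in any row.

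Imiquimod in stressed heterozygous larvae is the comparison nearest to the study's title, which concerns TLR7 and rps14 deficiency. The log2 fold changes were 0.08 ± 0.19 for mt-co1 (edgeR, SE), -0.25 ± 0.14 for mt-co2, -0.46 ± 0.15 for mt-co3, -0.40 ± 0.44 for mt-atp6, -0.04 ± 0.67 for mt-atp8 and -0.09 ± 0.42 for mt-cyb. All adjusted p were 1, and 0% of all genes were called. The 95% interval of mt-co1 ran from -0.30 to 0.46 and that of mt-cyb from -0.95 to 0.77. mt-co3 alone had an unadjusted p under 0.05, where 4.31% of all genes did.

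Averaged over the other factors, the genotype log2 fold changes ran from -0.07 ± 0.08 for mt-co3 (edgeR, SE) to 0.34 ± 0.23 for mt-cyb. None was called, where 0.437% of all genes were, and none had an unadjusted p under 0.05, where 8.97% did. For Phz, 2 of 6 had an unadjusted p under 0.05, where 12.3% of all genes did. The 6 averaged Phz values ran from 0.11 ± 0.10 for mt-co1 to 0.50 ± 0.24 for mt-atp6, with mt-co2 at 0.22 ± 0.08 (adjusted p = 0.22). All 6 were positive, except that mt-co1 and mt-co3 turned to -0.1 and -0.11 when scaled to the mitochondrial messenger RNAs. Single conditions differed, and for Phz in heterozygous imiquimod larvae 1 of 6 was positive (median -0.31). The share of all genes called for Phz was 0.0201%. For imiquimod, 3 of 6 had an unadjusted p under 0.05, where 8.98% of all genes did. The 6 averaged imiquimod values ran from -0.54 ± 0.24 for mt-atp6 to -0.14 ± 0.10 for mt-co1, with mt-co3 at -0.25 ± 0.08 (adjusted p = 0.32). All 6 were negative, except that mt-co1 and mt-cyb turned to 0.08 and 0.05 on the mitochondrial scale. This average joins opposite directions. All 6 were negative in wild-type unstressed larvae (-1.72 to -0.48), and all 6 were positive in heterozygous unstressed larvae (0.18 to 0.54). The share of all genes called for imiquimod was 0.00502%.

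Whether imiquimod acted differently in the 2 genotypes was tested by the interaction averaged over stress. Its log2 values were 0.69 ± 0.21 for mt-co1 (edgeR, SE), 0.58 ± 0.16 for mt-co2, 0.57 ± 0.17 for mt-co3, 0.85 ± 0.48 for mt-atp6, 0.98 ± 0.74 for mt-atp8 and 0.61 ± 0.46 for mt-cyb. None was called, with adjusted p from 0.75 to 0.98, where 0% of all genes were called. The unadjusted p was under 0.05 for the 3 oxidase genes, where 5.91% of all genes passed. This average joins unlike conditions. Without stress, imiquimod gave mt-co1, mt-co2 and mt-co3 -0.61, -0.74 and -0.48 in wild-type larvae and 0.33, 0.39 and 0.54 in heterozygous larvae. After Phz it gave them -0.35, -0.29 and -0.59 in wild-type larvae and 0.08, -0.25 and -0.46 in heterozygous larvae. The interaction was not tested within each stress condition. For the interaction of Phz with imiquimod, mt-co3 had -0.56 ± 0.17 (edgeR, adjusted p = 0.32), where 0.0351% of all genes were called. It alone had an unadjusted p under 0.05, where 8.85% of all genes did. By genotype, imiquimod gave mt-co3 -0.48 without stress and -0.59 after Phz in wild-type larvae, but 0.54 and -0.46 in heterozygous larvae. For the interaction of genotype with Phz, mt-co1 had -0.60 ± 0.21 and mt-co2 -0.43 ± 0.16, both with an adjusted p of 0.85 by edgeR. These 2 of 6 had an unadjusted p under 0.05, against 5.56% of all genes. In DMSO the genotype values without stress and after Phz were -0.06 and -0.40 for mt-co1, and -0.35 and -0.24 for mt-co2. In imiquimod they were 0.88 and 0.03 for mt-co1, and 0.77 and -0.21 for mt-co2.

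In the remaining comparisons within single conditions, mt-co2 and mt-co3 were the members with an unadjusted p under 0.05. mt-co3 was lower with imiquimod than with DMSO in wild-type Phz larvae, at -0.59 ± 0.17 (edgeR, SE, adjusted p = 0.53), with no overlap of the groups. It was the 1 gene of the 6 with an unadjusted p under 0.05 there, where 9.12% of all genes passed and 2.74% were as separate in that direction. With imiquimod in heterozygous unstressed larvae, mt-co2 and mt-co3 were higher by 0.39 ± 0.16 and 0.54 ± 0.17, both with an adjusted p of 1 by edgeR. These 2 did not overlap with DMSO, where 4.4% of all genes had an unadjusted p under 0.05 and 2.85% were as separate. Phz in heterozygous imiquimod larvae gave mt-co3 -0.48 ± 0.17 (adjusted p = 1) with no overlap, where 4.25% and 4.92% of all genes passed the same 2 criteria. Phz in heterozygous DMSO larvae gave mt-co2 0.33 ± 0.14 and mt-co3 0.52 ± 0.15 (adjusted p = 0.66 and 0.57), the 2 of 6 with an unadjusted p under 0.05, against 6.99% of all genes. Between genotypes in unstressed DMSO larvae, mt-co2 had -0.35 ± 0.16 and mt-co3 -0.47 ± 0.17 (adjusted p = 0.59 and 0.51), again 2 of 6, against 8.17% of all genes. None of the 6 had an unadjusted p under 0.05 between genotypes after Phz with DMSO or with imiquimod, or for Phz in wild-type DMSO larvae, where 7.83%, 3.51% and 10.7% of all genes did.

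Other components of the same complexes were set beside the 6 genes by lists drawn up with earlier results of these data known. Of 10, 26 and 22 symbols listed for nuclear subunits of complexes III, IV and V, 8, 17 and 18 were found, and some of these symbols are shared, COX5B by 3 genes in the table and COX6A1 by 2. Of the 7 mitochondrially encoded complex I genes, all had negative log2 fold changes for imiquimod in wild-type unstressed larvae (median -0.80), as did 8 of 8 nuclear complex III and 18 of 18 nuclear complex V subunits (medians -0.39 and -0.81). Of 18 nuclear complex IV subunits, 16 were negative (median -0.71). None of these genes passed the adjusted test. cox6b2, a nuclear oxidase subunit, stood at 265 CPM in DMSO and 135 CPM in imiquimod, a log2 fold change of -1.03 ± 0.21 (edgeR, adjusted p = 0.15). cox6c, another, had -1.38 ± 0.34 (adjusted p = 0.29), and UQCRQ, a small bc1 subunit, -1.46 ± 0.38 (adjusted p = 0.32). atp5if1b, of the family that inhibits ATP hydrolysis by the synthase, had -0.83 ± 0.20 (adjusted p = 0.24). Some more abundant nuclear subunits fell less than these, and all were named with their values known. ATP5F1B, at 888 CPM in DMSO, had -0.12 ± 0.14. atp5mc3b, at 890 CPM, had -0.28 ± 0.16, and ATP5F1C, at 457 CPM, had -0.24 ± 0.16. Subunits less abundant than cox6b2 could also fall less than it, as did ATP5PO (190 CPM, -0.30 ± 0.18) and COX4I1 (134 CPM, -0.35 ± 0.22). Whether the fall went with abundance was not tested.

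Between genotypes in unstressed imiquimod larvae, the list medians lay further apart. They were 0.99 for the 6 genes, 1.21 for the 7 mitochondrial complex I genes, all positive, and 0.09, 0.04 and 0.09 for the nuclear subunits of complexes III, IV and V. In heterozygous unstressed larvae, imiquimod gave the 6 genes a median of 0.36, with all 6 positive. The median was 0.11 for the 7 mitochondrial complex I genes, 6 of them positive, and 0.01 over all genes. The nuclear subunits of complexes III, IV and V had medians of -0.34, -0.44 and -0.45. The difference between the lists was not tested.

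**Figure D4:**
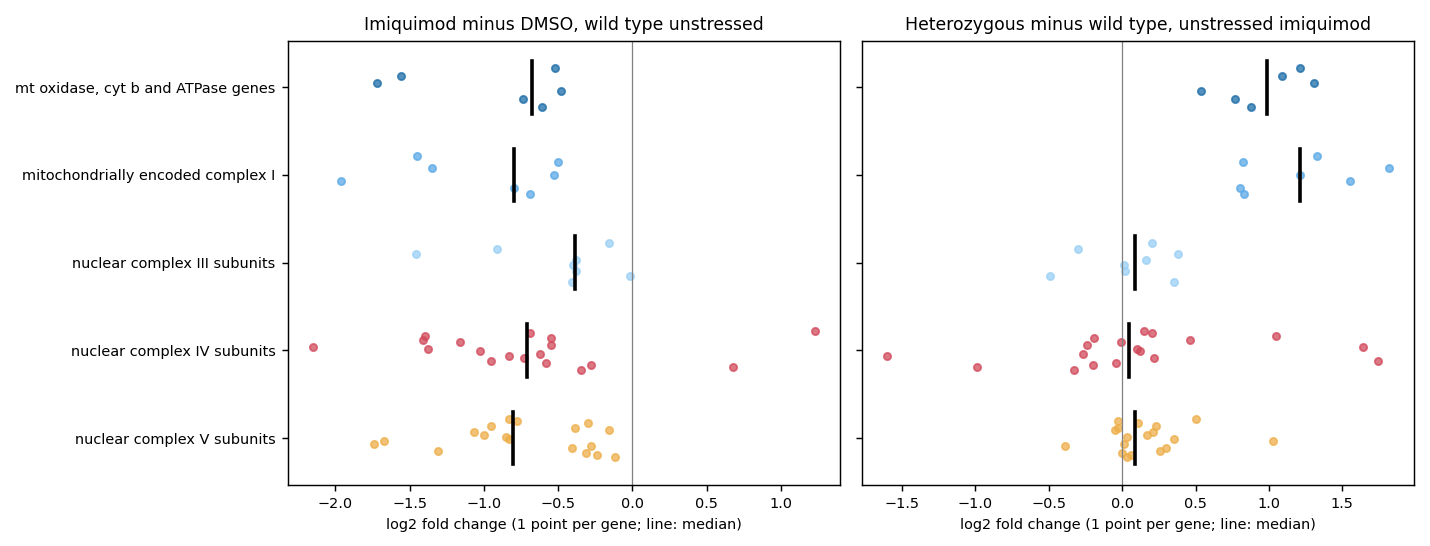
Log2 fold changes by edgeR, 1 point per gene, of the 6 genes, the mitochondrial complex I genes and nuclear subunits of complexes III, IV and V. For imiquimod in wild-type unstressed larvae all lists have negative medians, and for genotype in unstressed imiquimod larvae the nuclear lists have medians of 0.04 to 0.09.

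Factors that make and process mitochondrial RNA were listed too. For imiquimod in wild-type unstressed larvae, the median was -0.16 over 14 transcription and replication genes and -0.01 over 19 RNA processing and stability genes, against 0.08 over all genes. Between genotypes the RNA processing list had a median of 0.43 in unstressed DMSO larvae, with 16 of 19 positive, and 0.2 in unstressed imiquimod larvae, with 15 positive, against 0.02 and -0.05 over all genes. After Phz the genotype median of this list was -0.02 with DMSO, with 9 of 19 positive, and 0.04 with imiquimod, with 11 positive. SLIRP, which stabilises mitochondrial messenger RNAs, had -0.53 ± 0.14 for imiquimod averaged over the other factors (edgeR, adjusted p = 0.24). Its RNA processing list had a median of -0.01 for averaged imiquimod, with 8 of 19 positive. SLIRP had 0.32 ± 0.14 for averaged genotype and 0.33 ± 0.14 for averaged Phz (edgeR, adjusted p = 0.48 and 0.34). Of 32 assembly and oxidase translation factors, 26 were positive for averaged Phz (median 0.21) and 25 for genotype in unstressed imiquimod larvae (median 0.33). For genotype after Phz, 13 of these 32 were positive with DMSO (median -0.06) and 16 with imiquimod (median 0.0). No gene of these lists was called for averaged Phz or for genotype in unstressed imiquimod larvae.

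The 6 genes differed in how they spread over libraries. The coefficient of variation over the 30 libraries was 27.4% for mt-co1, 22% for mt-co2 and 23.4% for mt-co3, against 48.5% for mt-atp6, 43.2% for mt-atp8 and 42.9% for mt-cyb. Within groups the SD of log2 levels was 0.22 to 0.31 for the oxidase genes and 0.64 to 0.68 for the other 3. The highest library exceeded the lowest 2.39-fold for mt-co2 and 7.97-fold for mt-cyb, both with at least 4790 counts in each library, so counting error is small beside that range.

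**Figure D5:**
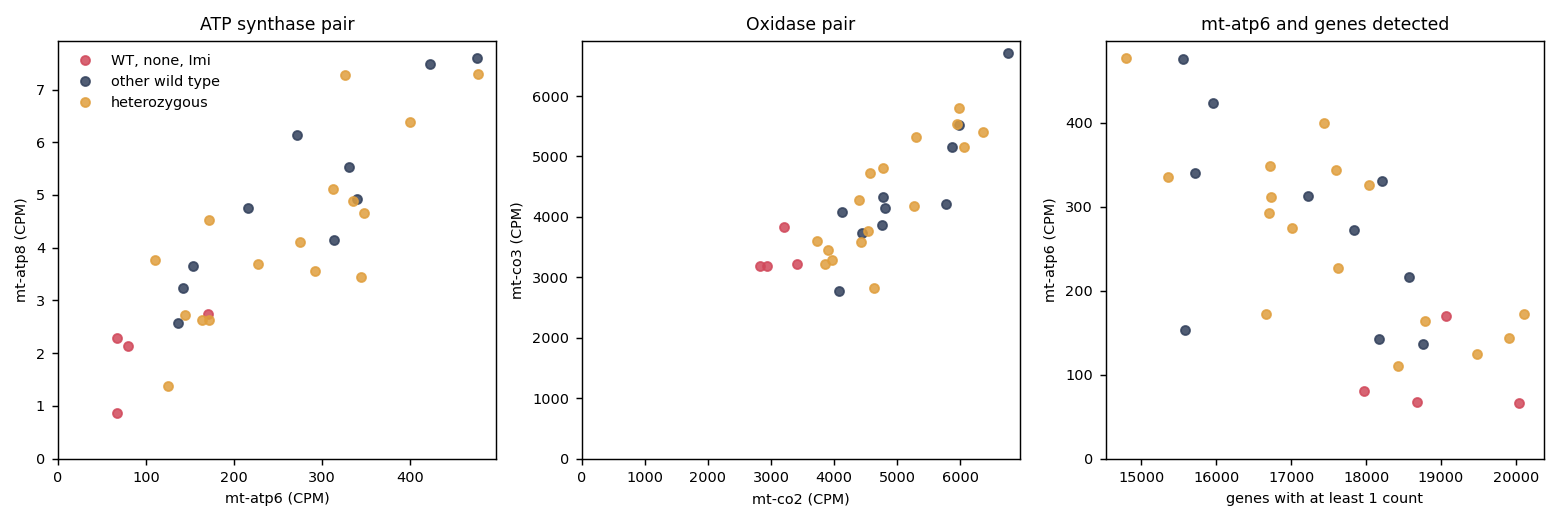
Levels in CPM (linear axes) of mt-atp6 against mt-atp8, mt-co2 against mt-co3, and mt-atp6 against the number of genes detected, 1 point per library, with the 4 wild-type unstressed imiquimod libraries in red. Correlations of log2 levels over 30 libraries are 0.85, 0.80 and -0.67 in the 3 panels.

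Over the 30 libraries mt-atp6 and mt-atp8 had the highest correlation of log2 levels (Pearson r = 0.85), followed by mt-co2 with mt-co3 and mt-atp6 with mt-cyb (both r = 0.80). mt-co3 with mt-atp8 had the lowest (r = 0.35). These are descriptions, since levels in 1 library share its depth and composition. In RefSeq's annotation of another assembly (GRCz12tu), the mt-atp8 frame overlaps mt-atp6 and the mt-atp6 frame overlaps mt-co3. How reads in such overlaps were counted was not stated, so counts of these 3 genes are uncertain to that extent. Among 9197 genes with a mean of at least 10 CPM, the closest to mt-co1 were mt-nd4l, MT-ND1 and MT-CO2 (r = 0.86, 0.82 and 0.76), and the closest to mt-co2 were MT-ND1, MT-ND6 and MT-CO3 (r = 0.85, 0.83 and 0.80). The closest to mt-cyb were MT-ND1, MT-ND5 and MT-ND4 (r = 0.92, 0.89 and 0.87), and to mt-atp6 they were MT-CYB, MT-ND1 and SF1 (r = 0.80, 0.79 and 0.78). For mt-co3 they were MT-CO2, si:dkey-21e2.16 and ENSDARG00000111237 (r = 0.80, 0.71 and 0.67), and for mt-atp8 MT-ATP6, eif5a and EIF1AD (r = 0.85, 0.72 and 0.72).

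The number of genes with at least 1 count was higher where the 6 genes were lower, to unequal degrees. It was 17967 to 20039 in the wild-type unstressed imiquimod libraries, with a mean of 18940 ± 864 (SD, n = 4), against 17191 ± 1422 in wild-type unstressed DMSO (n = 3). Its correlation with the summed level of the 6 was r = -0.50 over 30 libraries and -0.34 within groups, with mt-atp8 -0.70 and -0.69, with mt-atp6 -0.67 and -0.61, and with mt-co3 -0.36 and -0.06. For mt-co1, mt-co2 and mt-cyb it was -0.33, -0.52 and -0.43 over the libraries and -0.20, -0.33 and -0.34 within groups. Its part in the results was not tested. The correlation of total counts with the summed level was 0.02 over the libraries and -0.13 within groups. Within groups it ran from -0.36 with mt-co2 to 0.07 with mt-cyb. Totals were 5703056 to 6557319 in wild-type unstressed imiquimod libraries and 6509676 to 7438248 in wild-type unstressed DMSO libraries. The part of total counts in the results was not tested. ENSDARG00000080337, the most abundant gene of the table, has no symbol here. Its correlation with the summed level was 0.22 over the libraries and -0.31 within groups. Within groups it was 0.39 with mt-co3 and from -0.09 (mt-co2) to -0.60 (mt-cyb) with the others. Shares of counts depend on such a gene, and its part in the results was not tested. Neutrophil marker sums overlapped between wild-type unstressed DMSO (10530 to 30652 CPM) and imiquimod (12083 to 24123 CPM), as did exocrine pancreas sums (792 to 1485 and 474 to 1059 CPM). Lymphoid marker sums did not overlap, at 261 to 338 CPM with DMSO and 392 to 565 CPM with imiquimod, and their part in the result was not tested. The other marker sums overlapped between these groups. The lymphoid sum in heterozygous unstressed imiquimod libraries was 383 to 561 CPM, within reach of the wild-type imiquimod libraries. These lymphoid sums rest mostly on ikzf1. That gene had a mean of 298 CPM over the 30 libraries, against 420 CPM for the sum. In heterozygous unstressed imiquimod libraries the pancreas sum was 1007 to 3176 CPM, and its part in the genotype difference was not tested. All these pancreas sums include the cpa1 gene that was at 413 CPM or more in every library. The labels number 6 libraries S1 to S6, replicate 1 of 6 groups, and later numbers run group by group except in the Phz DMSO groups, whose numbers are interleaved. The Phz DMSO libraries hold the last numbers, so order and group cannot be told apart in their contrasts with other groups. In the unstressed and Phz imiquimod groups library order and group cannot be told apart after S6. Without those 6, imiquimod in wild-type unstressed larvae gave mt-co2 a log2 fold change of -0.89 (edgeR, adjusted p = 0.24), mt-atp6 -2.3 (adjusted p = 0.34) and mt-cyb -1.11 (adjusted p = 0.71). Within them, with 1 library a group, mt-co2 was at 3417 CPM with imiquimod and 4809 CPM with DMSO, and mt-cyb at 3801 and 2882 CPM.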

How the data were processed

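Per the submitters' processing notes, the authors used FastQC 0.11.9, Trimmomatic 0.39, HISAT2 2.1.0, SAMtools 1.9, featureCounts (Subread 2.0.0) and DESeq2 with GRCz11. The deposited values are whole-number read counts per gene, not normalized. The annotation, strand and overlap settings are not given in the sources used here. Reads had no molecular identifiers, and Poisson intervals on counts cover counting error only. Intervals of fold changes come from the edgeR fit and hold the spread between libraries. CPM is the usual library-size unit, computed here from raw totals.

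Counts were fitted with edgeR 4.0.16 in R 4.3.3 (filterByExpr, TMM factors 0.896 to 1.07, robust quasi-likelihood, 1 model of 8 groups; common dispersion 0.674). Of 20631 genes, 19930 were tested in 18 contrasts, with Benjamini-Hochberg adjustment over all of them and calls at an adjusted p under 0.05. The script was run on simulated data of lower dispersion, with changes between the genotypes over all libraries. That run did not gauge the contrasts within single conditions. Alternatives were DESeq2 1.42.0, voom in limma 3.58.1, other scalings and filters, a replicate block, and leaving out libraries. Named genes were the 6 genes, the 3 most alike to each, and up to 4 of smallest p per list and averaged contrast. ENSDARG00000080337 was named with its values known. Single-condition values of list genes were given with those values known. The genes and lists were chosen with earlier results of these data known. Symbols came from a reference table, and 18909 tested genes had one.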

Additional observations from a re-analysis of the deposited data

Results flagged for a closer look

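In 35 tests of single groups of 4 or 5 libraries, 3 libraries stood far from the rest of their group. Chance gives about 1 in 20 of such tests. The tests share libraries and are not independent, so the 3 are not read as more than chance. mt-co3 in wild-type unstressed imiquimod replicate 4 was at 3828 CPM, and the other 3 libraries were at 3179 to 3228 CPM. mt-atp6 in wild-type unstressed imiquimod replicate 1 was at 170 CPM, and the others at 66.7 to 79.9 CPM. mt-atp8 in heterozygous Phz DMSO replicate 5 was at 7.3 CPM, and the other 4 at 3.44 to 4.11 CPM.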

How the results depend on the processing

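Of 1896 log2 fold changes recomputed (48 combinations of gene and contrast, up to 40 settings, 30 of them leaving out 1 library), 1846 kept direction and side of the threshold, 6 passed it newly and 44 changed sign. DESeq2 called 2 of the 6 genes for genotype in unstressed imiquimod larvae, 1 for Phz in wild-type imiquimod larvae and 2 for imiquimod in wild-type unstressed larvae, and leaving out single libraries gave 0 to 1 in the last. The cause was not tested. Scaling to the 13 mitochondrial messenger RNAs, which removes any change they share by construction, changed the sign of mt-co1 and mt-co3 for averaged Phz (-0.1, -0.11), of mt-co1 and mt-cyb for averaged imiquimod (0.08, 0.05), of mt-co2 and mt-co3 for genotype in unstressed imiquimod larvae (-0.06, -0.29), of mt-co1, mt-co3 and mt-cyb for imiquimod in wild-type unstressed larvae (0.01, 0.16, 0.02), of mt-co1 and mt-co3 for Phz in wild-type imiquimod larvae (-0.05, -0.4), of mt-atp8 and mt-cyb for imiquimod in heterozygous Phz larvae (0.17, 0.13), and of mt-co2 and mt-co3 for genotype by imiquimod (-0.03, -0.05). For averaged genotype, leaving out single libraries moved mt-co2 between -0.04 and 0.05 and mt-atp8 between -0.11 and 0.09, and mt-atp6 was -0.05 without S1 to S6. For imiquimod in heterozygous Phz larvae it moved mt-atp8 between -0.42 and 0.18 and mt-cyb between -0.16 and 0.01.

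Deviations of same-number libraries were little correlated over all genes. Of 94 same-number pairs across groups, 8 had a correlation over 0.1 (median r 0.0145), and different-number pairs had a median r of -0.00842. Whether single genes shared an effect of replicate number was not tested. With the replicate block, no member was called, and mt-atp8 and mt-cyb had 0.19 and 0.05 for imiquimod in heterozygous Phz larvae. Over all genes, averaged genotype called 87 genes, 112 with the block, 236 by DESeq2 and 47 to 117 when leaving out single libraries, and averaged Phz called 4, 0 with the block and 162 by DESeq2. Averaged imiquimod called 1, and 56 by DESeq2. Scaling to the mitochondrial messenger RNAs called 691 genes for genotype in unstressed imiquimod larvae, against 1. The fit of only the groups compared was run for contrasts of 2 groups. Counts of 5 to 56 limit mt-atp8.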
